A study of Mus musculus with 16 samples.

Results

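The genes described here encode subunits of the proteasome: 38 mouse genes whose symbol begins with Psma, Psmb, Psmc or Psmd and a number, without the interferon-induced subunits Psmb8 and Psmb9. The rule uses the symbol and no measured value, but it was chosen with earlier results of these data known. The array carried 46 probes for them among 55681 probes. Of the 38 genes, 17 belong to the core (Psma and Psmb) and 20 to the cap (Psmc and Psmd), where the cap includes 3 assembly chaperones that carry Psmd symbols. The remaining gene, Psmc3ip, matches the symbol pattern but encodes a cofactor of meiotic recombination, and it was kept out of all counts. A probe bright enough to test was found for 34 of the 37 core and cap genes, 15 in the core and 19 in the cap, among 22024 genes or transcripts tested.

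The proteasome degrades proteins that carry ubiquitin chains. Its core is a stack of rings in which the alpha subunits guard the entrance and 3 of the beta subunits cut the substrate, and the cap recognises, unfolds and feeds the substrate through a base that holds ATPases and a lid that removes ubiquitin. Proteasome genes are known as a group whose transcription can rise together when the proteasome is inhibited or when proteins are damaged, through the factor Nfe2l1, and some are also reached by the oxidative stress factor Nfe2l2.

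Livers came from female B6C3F1 mice, bought at 5 to 6 weeks of age. For 21 days mice were gavaged with corn oil, either alone or with furan, which liver enzymes turn into a reactive aldehyde, at a dose of 8 mg/kg, and livers were taken 4 h after the final gavage. Tissue stayed in formalin for 18 h or 3 weeks before paraffin embedding, and RNA came from 1 section of 10 µm at 18 h and from 2 such sections at 3 weeks, so that time in formalin and number of sections cannot be told apart. Each of 16 arrays with 2 colours held liver sample in Cy5 and a pool of all samples in Cy3, and all values below are log2 ratios of sample over that pool, which compare a gene between samples and never 1 gene with another. The groups were corn oil at 18 h (controls 2, 3, 4 and 6), furan at 18 h (furan 41 to 44), corn oil at 3 weeks (controls 2, 4 and 6, where control 2 is the mean of 2 arrays read as 1 animal) and furan at 3 weeks (furan 41 to 44), and values are listed in this order of samples. The number of samples, 15 in all, limits the precision of every value, and each of the 2 slides held 2 arrays of every group. The 3-week sample numbers also occur at 18 h, so the 15 samples may come from fewer mice. The main fits treated the samples as independent.

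Per the labels, the RNA integrity numbers were 1.3 to 2.4. Probes well above background made up 44.3% to 50.1% of all probes in 18 h controls, 51.9% to 55.2% in 18 h furan samples, 32.3% to 36.7% in 3-week controls and 35.9% to 41.4% in 3-week furan samples. All 6 hepatocyte markers and all 6 Kupffer cell markers were well above background on 3 or more arrays of every group. In the order of groups above, so were 4, 5, 2 and 3 of 5 endothelial markers. For stellate cells the counts were 6, 6, 3 and 3 of 6 markers, and for lymphocytes 4, 4, 3 and 3 of 5. For bile duct cells they were 2, 1, 1 and 1 of 5, and Krt19 was well above background on no array. In bulk liver, fewer cells of a type and less RNA per cell cannot be told apart.

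The sequences just upstream of 9 members show what lies at the start of the genes that the comparisons below turn on: 7 members whose furan effect differed between the times in formalin, and the catalytic subunits Psmb5 and Psmb6, whose windows match the antioxidant element. Each sequence is the 150 bases that end 1 base before the annotated start, read 5′ to 3′ on the gene's strand, from RefSeq on GRCm38.p6. Capitals mark matches on either strand to TGACNNNGC (the antioxidant element), CCAAT (the NF-Y box) or GGGCGG (the GC box), and adjoining or overlapping matches run together.
Psma1 (chr7:114276117-114276266, minus strand): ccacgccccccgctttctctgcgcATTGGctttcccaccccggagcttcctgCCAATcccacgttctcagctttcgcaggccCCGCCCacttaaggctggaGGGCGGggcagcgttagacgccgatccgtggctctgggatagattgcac
Psma7 (chr2:180042465-180042614, minus strand): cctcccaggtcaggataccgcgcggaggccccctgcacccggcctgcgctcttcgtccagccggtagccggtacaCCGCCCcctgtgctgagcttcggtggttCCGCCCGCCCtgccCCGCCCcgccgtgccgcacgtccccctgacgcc
Psmb4 (chr3:94886959-94887108, minus strand): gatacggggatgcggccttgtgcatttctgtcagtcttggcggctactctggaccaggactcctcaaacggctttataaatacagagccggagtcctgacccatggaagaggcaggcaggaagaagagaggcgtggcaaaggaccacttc
Psmb5 (chr14:54617996-54618145, minus strand): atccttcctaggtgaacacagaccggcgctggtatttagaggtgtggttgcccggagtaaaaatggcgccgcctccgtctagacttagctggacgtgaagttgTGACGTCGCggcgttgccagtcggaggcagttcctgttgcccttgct
Psmb6 (chr11:70525207-70525356, plus strand): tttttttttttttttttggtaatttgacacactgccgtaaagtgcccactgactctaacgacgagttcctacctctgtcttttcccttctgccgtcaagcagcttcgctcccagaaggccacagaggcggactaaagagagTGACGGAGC
Psmd2 (chr16:20651502-20651651, plus strand): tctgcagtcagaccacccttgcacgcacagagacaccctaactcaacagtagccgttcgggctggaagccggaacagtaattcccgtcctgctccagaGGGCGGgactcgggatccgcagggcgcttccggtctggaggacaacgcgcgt
Psmd5 (chr2:34870963-34871112, minus strand): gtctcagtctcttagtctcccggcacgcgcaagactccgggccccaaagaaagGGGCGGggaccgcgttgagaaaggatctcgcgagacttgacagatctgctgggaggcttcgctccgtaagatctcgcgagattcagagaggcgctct
Psmd11 (chr11:80428465-80428614, plus strand): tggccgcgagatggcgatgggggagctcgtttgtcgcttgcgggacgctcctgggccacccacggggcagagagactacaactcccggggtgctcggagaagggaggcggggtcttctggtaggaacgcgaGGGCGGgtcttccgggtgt
Psmd14 (chr2:61711544-61711693, plus strand): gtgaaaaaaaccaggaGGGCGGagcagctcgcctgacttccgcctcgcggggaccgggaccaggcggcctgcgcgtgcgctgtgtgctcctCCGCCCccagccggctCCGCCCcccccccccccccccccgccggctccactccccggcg
In these windows TGACNNNGC occurred in Psmb5 and Psmb6 and at no other sequence printed, CCAAT occurred in Psma1 on both strands, and GC boxes occurred in Psma1, Psma7, Psmd2, Psmd5, Psmd11 and Psmd14. The table held 32 starts for 30 of the 37 core and cap genes. TGACNNNGC occurred at 3 of these 32 starts, or 9.38%, against 6.80% of 32851 starts of all genes. The 3 starts were those of Psmb5, Psmb6 and Psmd9, of which that of Psmd9 is not printed. With furan at 18 h, Psmb5 and Psmb6 were called higher on their brightest probes and Psmd9 was called lower, as given below. CCAAT occurred at 8, or 25%, against 24.5%, and GGGCGG at 14, or 43.8%, against 28.6%. The windows of the proteasome genes had a median GC content of 60.3%, against 54.0% for all genes. These matches describe the letters only.

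At 18 h in formalin, most core genes were higher in furan livers than in controls on their brightest probe. On that probe 4 core genes, 3 lid subunits and 2 assembly chaperones were lower. Of the 34 genes, 16 rose, 9 fell and 9 did not pass the test (limma, adjusted p under 0.05 over all probes, called by the brightest probe of a gene). The 16 that rose were 47.1% of the members, beside 21.7% of all genes tested, and the 9 that fell were 26.5%, beside 26.6% of all genes, so the share that fell was that of the background. In the core, 9 of 15 rose and 4 fell, with a median difference of 0.22 on the log2 scale. In the cap, 7 of 19 rose and 5 fell, with a median of 0.11, and the median of all genes was -0.044. The furan and control samples did not overlap, with furan higher, for 17 members, or 50%, beside 19.4% of all genes, and with furan lower for 8, or 23.5%, beside 20.9%.

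**Figure D1:**
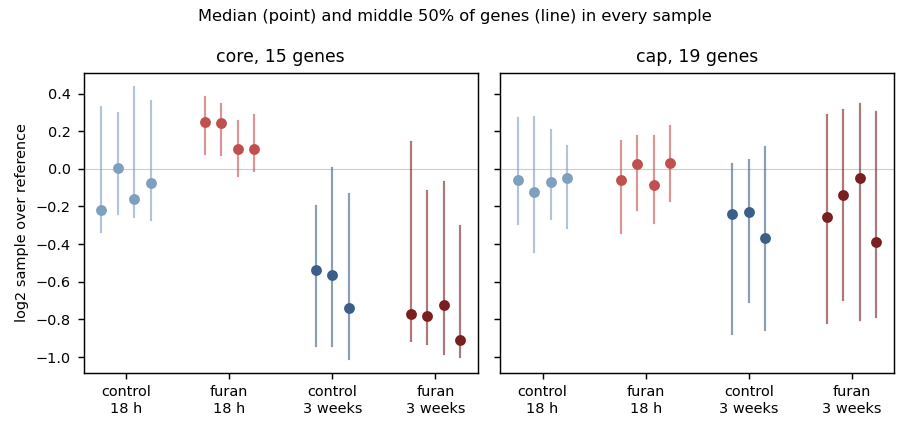
Median log2 ratio of sample over pooled reference (points) over the 15 core genes and the 19 cap genes in each of 15 samples, with the middle 50% of the genes as lines. Core medians lay at -0.22 to 0.0057 in 18 h controls and 0.10 to 0.25 in 18 h furan samples, and all samples at 3 weeks lay below both.

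Across the core, the median of the 15 genes was -0.22 to 0.0057 in 18 h controls and 0.10 to 0.25 in 18 h furan samples, and these ranges do not overlap. Across the cap, the medians were -0.12 to -0.049 and -0.086 to 0.032, and these ranges overlap.

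In the alpha ring, whose subunits form the entrance, 6 genes moved together. Of its 7 tested genes 6 rose at 18 h and 1 fell, with a median difference of 0.46. Psma1 had values of -0.41, 0.0057, -0.33 and -0.26 in controls and 0.42, 0.59, 0.51 and 0.30 in furan samples. All furan samples lay above all controls, and the difference was 0.71 ± 0.10 (SE; adjusted p = 3.38e-04), a 1.63-fold rise. Psma7 had -0.38, -0.21, -0.19 and -0.29 in controls and 0.40, 0.44, 0.45 and 0.32 in furan samples, again without overlap, a difference of 0.67 ± 0.080 (adjusted p = 1.05e-04). Psma5 had -0.22, -0.27, -0.16 and -0.18 in controls and 0.41, 0.31, 0.20 and 0.27 in furan samples, a difference of 0.50 ± 0.081 (adjusted p = 6.52e-04). Psma3 rose by 0.46, Psma2 by 0.22 and Psma4 by 0.22 on the log2 scale, all without overlap between the groups. The exception in the ring was Psma6, with 0.83, 0.89, 0.87 and 0.52 in controls and 0.36, 0.28, -0.12 and 0.0091 in furan samples. It was lower in all furan samples, and it fell by 0.64 (adjusted p = 3.76e-04).

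The beta ring divided. Among the catalytic subunits, Psmb5, which carries the chymotrypsin-like activity, had -0.42, -0.43, -0.43 and -0.55 in controls and -0.10, -0.12, -0.076 and -0.20 in furan samples on its brightest probe. Every furan sample was higher, and the difference was 0.33 ± 0.080 (adjusted p = 0.00589), although a second probe of the gene moved the other way. Psmb6, with the caspase-like activity, had -0.28, -0.43, -0.52 and -0.31 in controls and -0.17, -0.22, -0.058 and 0.055 in furan samples, a rise of 0.29 without overlap (adjusted p = 0.0119). Psmb7, with the trypsin-like activity, had 0.59, 0.78, 0.73 and 0.51 in controls and 0.53, 0.65, 0.10 and 0.091 in furan samples. Its groups overlap, since furan 41 and 42 lay within the range of the controls and furan 43 and 44 far below it. Furan 41 and 42 were on slide 1 and furan 43 and 44 on slide 2, with differences of -0.16 and -0.45 within the slides. Slide and sample cannot be told apart in this split. Psmb7 fell by 0.31 (adjusted p = 0.0156), and its sign turned with median centring (0.0047). Without furan sample 43 or 44 the difference was -0.28 in either case and the call was lost (adjusted p = 0.0514 and 0.0502). It was also lost with Agilent's log ratios, with the authors' deposited values and without the slide term.

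Of the structural beta subunits, Psmb2 fell most in the core, with 0.77, 0.44, 0.72 and 0.68 in controls and -0.27, -0.11, -0.14 and -0.36 in furan samples. No furan sample reached a control, and the difference was -0.87 ± 0.10 (adjusted p = 8.82e-05). Psmb1 had 0.84, 0.79, 0.76 and 0.63 in controls and 0.18, 0.12, 0.064 and 0.16 in furan samples, and it fell by 0.62 without overlap (adjusted p = 1.96e-04). Psmb4 rose by 0.46, and Psmb3 had a difference of 0.19 that did not pass the test (adjusted p = 0.0647). Psmb10, which replaces Psmb7 in the immunoproteasome, had 0.062, 0.16, 0.15 and 0.21 in controls and 0.15, 0.31, 0.27 and 0.11 in furan samples. These overlap, and the difference was 0.063 ± 0.085 (adjusted p = 0.56). Of the interferon-induced subunits left out of the rule, Psmb8 fell by 0.85 (adjusted p = 1.47e-04) and Psmb9 differed by -0.13 (adjusted p = 0.242).

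**Figure D2:**
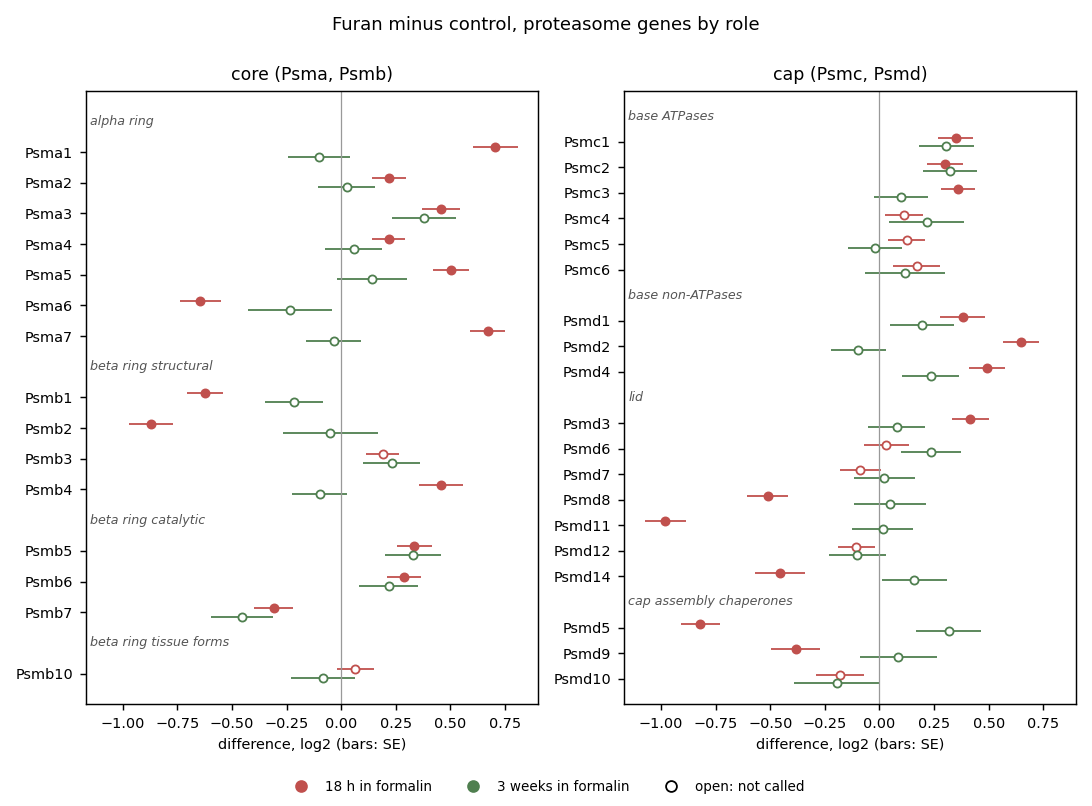
Furan minus control for the brightest probe of each of the 34 tested members, by role, in log2 units with the standard error of the fit. Filled points passed the test (adjusted p under 0.05), which 25 did at 18 h and 0 at 3 weeks.

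In the base of the cap no tested gene fell on its brightest probe, although a second probe of Psmc3 was called lower. Of the 6 ATPases that unfold the substrate, Psmc1, Psmc2 and Psmc3 rose, by 0.35, 0.30 and 0.36, while Psmc4, Psmc5 and Psmc6 had differences of 0.11, 0.12 and 0.17 that did not pass. All 3 scaffold or receptor subunits of the base rose. Psmd2, a scaffold that docks ubiquitin shuttle proteins, had -0.46, -0.41, -0.40 and -0.33 in controls and 0.10, 0.29, 0.27 and 0.32 in furan samples. The groups do not overlap, and the difference was 0.65 ± 0.084 (adjusted p = 1.69e-04), a 1.57-fold rise. Psmd4, a receptor for ubiquitin chains, had -0.38, -0.65, -0.56 and -0.58 in controls and -0.058, -0.14, -0.029 and 0.032 in furan samples, a rise of 0.49 without overlap (adjusted p = 8.25e-04). Psmd1, the other large scaffold, rose by 0.38 (adjusted p = 0.0114).

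In the lid, 1 of 7 tested genes rose and 3 fell. Psmd11, a lid scaffold, fell most of all 34 members, from 0.56, 0.27, 0.46 and 0.29 in controls to -0.64, -0.53, -0.68 and -0.49 in furan samples. The groups lay far apart, with a difference of -0.98 ± 0.096 (adjusted p = 3.75e-05), which puts the control level 1.97-fold above the furan level. Psmd8, a lid subunit that joins late in assembly, had 0.10, -0.033, 0.017 and -0.033 in controls and -0.72, -0.66, -0.30 and -0.31 in furan samples, and it fell by 0.51 without overlap (adjusted p = 0.0014). Psmd14, the deubiquitinase of the lid, had 0.45, 0.34, 0.46 and 0.29 in controls and -0.43, 0.025, 0.069 and 0.056 in furan samples. It fell by 0.45 (adjusted p = 0.00809), with furan 41 lowest, and its probe was well above background on 4 of 4 control and 3 of 4 furan arrays. The lid gene that rose was Psmd3, a lid scaffold, with -0.22, -0.24, -0.32 and -0.066 in controls and 0.18, 0.10, 0.17 and 0.36 in furan samples, a rise of 0.42 without overlap (adjusted p = 0.00251). Psmd6, Psmd7 and Psmd12 had differences of 0.031, -0.087 and -0.11 that did not pass.

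Of the 3 chaperones that help to assemble the base, none rose on its brightest probe. Psmd5 had 0.64, 0.53, 0.74 and 0.87 in controls and -0.13, -0.19, -0.10 and -0.070 in furan samples. All furan samples were lower, and it fell by 0.82 (adjusted p = 6.43e-05), so that controls stood 1.76-fold higher. Psmd9 fell by 0.38 (adjusted p = 0.0158), and Psmd10 had a difference of -0.18 (adjusted p = 0.196).

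**Figure D3:**
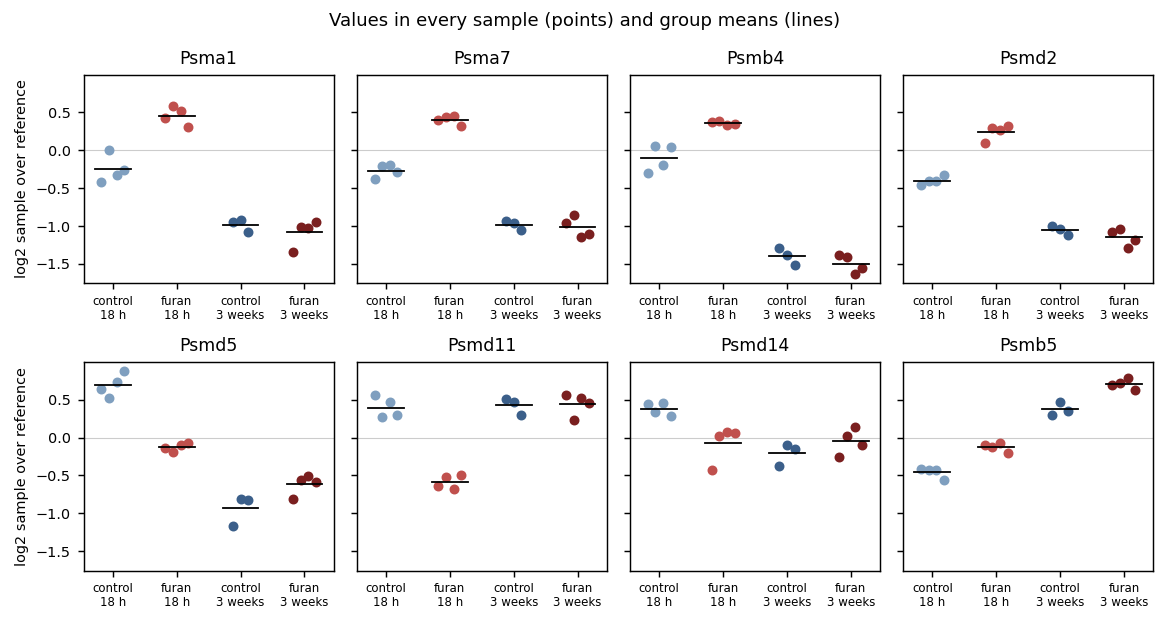
Log2 ratio of sample over pooled reference in every sample (points) with the group mean (line), for the 7 members whose furan effect differed between the times and for Psmb5. Psma1, Psma7, Psmb4 and Psmd2 were higher with furan at 18 h and overlapped between the groups at 3 weeks, while Psmd5, Psmd11 and Psmd14 were lower in every furan sample than in any control at 18 h. The Psmd14 probe was well above background on 0 arrays at 3 weeks.

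Probes of the same gene disagreed in several members. Of the 7 members with more than 1 tested probe, 5 had probes with opposite signs at 18 h, beside 46.9% of 3018 genes with 2 tested probes. Both probes were called in 3 members, in opposite directions in 2 of them. Over all genes both probes were called in 930, in opposite directions in 405 of them, or 43.5%. Such disagreement was thus common on the array and not particular to the members. For Psmb5 the less bright probe had 0.13, -0.079, 0.17 and 0.15 in controls and -0.24, -0.21, -0.36 and -0.43 in furan samples. It fell by 0.40 (adjusted p = 0.00535), against a rise of 0.33 on the brightest probe. For the ATPase gene Psmc3 the less bright probe fell by 0.28 (adjusted p = 0.0433), against a rise of 0.36. Among these 5, the dimmer probe of Psmd10 was well above background on 1 of 4 control and 4 of 4 furan arrays at 18 h and was tested only because of the latter, so its higher value in furan samples is not read as a disagreement with the brightest probe. The less bright probe of Psma4 had -0.25 (adjusted p = 0.051), against a rise of 0.22. Psmd12 had 0.17 against -0.11, neither of which passed. The probes of Psmc2 both rose, by 0.30 and 0.29, and those of Psmc1 had 0.35 and 0.26, of which the first passed. The positions of the probes on the transcripts were not used here, so the calls of the genes with 1 probe have no such check.

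**Figure D4:**
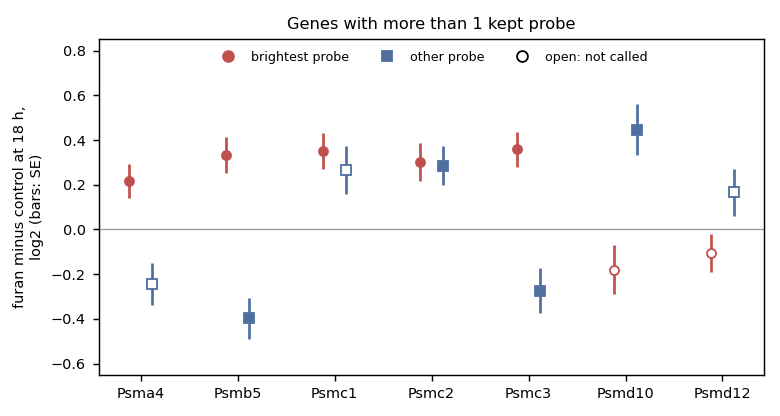
Furan minus control at 18 h (log2, bars are standard errors) on each tested probe of the 7 members with more than 1. Psmb5 and Psmc3 were called in opposite directions on their probes.

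Several measures moved with the furan effect at 18 h. The 18 h furan arrays had more probes above background than any control array, as given above, and with this share as a covariate 0 of the 34 members were called, beside 0.390% of all genes called higher and 1.63% lower. Of the 25 members called without it, 24 kept the sign and 19 had a difference within 1.5 times of the one without it, while the median SE went from 0.085 to 0.22. The exceptions were Psma1, Psma6, Psmb7, Psmd8, Psmd14 and Psmd9, of which Psmd9 turned from -0.38 to 0.12. No 18 h furan array had a share within the range of the 18 h controls, so this share and furan cannot be told apart. Members that rose had brighter spots, with a median brightness of 11.9 on the log2 scale, than those that fell, with 8.73. Across the 34 genes brightness and the furan difference correlated at r = 0.45, beside -0.077 over all genes, where genes share arrays and brightness reflects the probe as well as the RNA. The hepatocyte markers moved as well, since 5 of 6 fell, beside 26.6% of all genes. The median of the list was 0.42 to 0.62 in 18 h controls and -0.26 to 0.011 in furan samples. Markers of other cells were also called, beside 21.7% of all genes higher. Of 5 endothelial markers 2 rose and 3 fell, and of 6 stellate cell markers 2 rose and 3 fell. Of 4 lymphocyte markers 2 fell, of 6 Kupffer cell markers 1 fell and of 2 bile duct markers 1 fell, while 0 rose in these 3 lists. The part of these measures in the result was not tested. Within each slide the sign of all 25 called members was that of the full fit. The calls were made on these same arrays, so this agreement is no separate check.

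The scaling of the arrays changed the balance of the calls. With each array centred on its median in place of loess, 23 members rose and 5 fell at 18 h, beside 36.3% and 7.83% of all genes, and with the authors' deposited values 20 rose and 7 fell, beside 28.2% and 21.0%, against 16 and 9. Of all genes called, 82.3% were higher with median centring and 44.9% with loess, and of the members called 82.1% and 64%. Median centring moved the median difference of all genes from -0.044 to 0.13 and that of the core from 0.22 to 0.78. Apart from Psmb7 with median centring, no member called at 18 h changed its sign under the 4 other scalings tried. Median centring also ended the calls of Psmb1 (-0.19, adjusted p = 0.228), Psmd8 (-0.14, adjusted p = 0.42) and Psmd9 (-0.17, adjusted p = 0.293). Besides that of Psmb7, Agilent's log ratios ended those of Psma2, Psmb4, Psmc2, Psmc3 and Psmd9, the authors' deposited values that of Psmd9, and leaving out the background subtraction that of Psma2.

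At 3 weeks in formalin no proteasome gene passed the test: 0 of 34 rose and 0 fell (limma, adjusted p under 0.05), beside 0.104% and 0.0318% of all genes. At an unadjusted p under 0.05, 4 were higher and 1 was lower, or 11.8% and 2.94%, beside 7.02% and 7.57% of all genes. Furan samples lay above all controls for 10 members, or 29.4%, beside 8.39% of all genes, and below for 1, or 2.94%, beside 6.11%. The median difference was -0.034 in the core and 0.099 in the cap, beside 0.00087 over all genes. With median centring 9 members were called higher and 0 lower, beside 8.35% and 0.822% of all genes, where 91.0% of all calls were higher. With all 15 samples in 1 fit 1 was called, Psmb7, so that 0 were higher and 1 was lower, beside 2.55% and 2.24% of all genes.

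Psmb7 had the smallest p in the core, with 0.046, -0.083 and -0.19 in controls and -0.19, -0.54, -0.72 and -0.66 in furan samples. Every furan sample was lower than every control, furan 41 only just, and the difference was -0.45 ± 0.14 (adjusted p = 0.217). Psma3 had -0.18, 0.058 and 0.14 in controls and 0.31, 0.47, 0.52 and 0.24 in furan samples, a difference of 0.38 ± 0.14 (adjusted p = 0.285). Psmb5 had 0.30, 0.47 and 0.35 in controls and 0.69, 0.71, 0.78 and 0.63 in furan samples on its brightest probe, a difference of 0.33 ± 0.13 (adjusted p = 0.291). The groups do not overlap on these probes, with furan higher, whereas the less bright probe of Psmb5 had -0.016 and groups that overlap.

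In the cap, Psmc2 had 0.52, 0.63 and 0.58 in controls and 0.92, 0.87, 0.92 and 0.87 in furan samples, a difference of 0.32 ± 0.12 (adjusted p = 0.287), and its second probe had 0.27. Psmc1 had 0.56, 0.71 and 0.64 in controls and 0.96, 1.01, 0.96 and 0.83 in furan samples, a difference of 0.31 ± 0.13 (adjusted p = 0.323). On these brightest probes both ATPase genes were higher in every furan sample than in any control. The second probe of Psmc1 had 0.18, with groups that overlap. Psmd5 had -1.17, -0.81 and -0.82 in controls and -0.80, -0.56, -0.51 and -0.59 in furan samples, a difference of 0.32 ± 0.15 (adjusted p = 0.382), with furan 41 only just above the highest control. Psmb6 and Psmb10 had differences of 0.22 and -0.083, with adjusted p of 0.513 and 0.856.

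The furan effect itself was compared between the times. Of the 34 members 3 had a higher effect at 3 weeks, or 8.82%, beside 7.43% of all genes, and 4 had a lower one, or 11.8%, beside 5.16%. The core held 3 lower and 0 higher, and the cap 3 higher and 1 lower. In the core Psmb2 was higher by 0.82, which was not called. It was called without control 3 at 18 h, or without control 4, furan 42 or furan 44 at 3 weeks (limma, adjusted p = 0.021 to 0.038). Without background subtraction 6 members were higher and 4 lower, beside 11.6% and 5.73%. Of these, 2 of the higher and 3 of the lower were core genes. With Agilent's log ratios 3 were higher and 2 lower, beside 4.32% and 3.21%. Psma1 had an effect of 0.71 at 18 h and -0.10 at 3 weeks, where its values were -0.95, -0.92 and -1.08 in controls and -1.34, -1.02, -1.03 and -0.95 in furan samples. The 3-week groups overlap, and the difference of the effects was -0.81 ± 0.17 (adjusted p = 0.0071), or -0.85 with Agilent's log ratios, where the call was lost (adjusted p = 0.0693). Psma7 had -0.93, -0.96 and -1.05 in controls and -0.97, -0.85, -1.14 and -1.11 in furan samples at 3 weeks, and the difference of the effects was -0.70 ± 0.13 (adjusted p = 0.00284). Psmd2 had -1.0, -1.04 and -1.11 in controls and -1.08, -1.04, -1.29 and -1.18 in furan samples at 3 weeks, and the difference of the effects was -0.74 ± 0.14 (adjusted p = 0.00312). For the structural beta subunit Psmb4 it was -0.55 ± 0.15 (adjusted p = 0.0224). All 4 genes rose at 18 h and had furan and control samples that overlap at 3 weeks.

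In the other direction, Psmd5 had effects of -0.82 and 0.32, which differ by 1.14 ± 0.16 (adjusted p = 9.61e-04). Psmd11 had 3-week values of 0.51, 0.47 and 0.30 in controls and 0.56, 0.23, 0.52 and 0.45 in furan samples. These overlap widely, and the difference of the effects was 0.99 ± 0.16 (adjusted p = 0.00146). Psmd14 had -0.38, -0.092 and -0.15 in controls and -0.25, 0.026, 0.14 and -0.096 in furan samples at 3 weeks, and the difference was 0.61 ± 0.18 (adjusted p = 0.0356), but its probe was well above background on 0 arrays of both 3-week groups, so that these values are poorly determined. The Psmd14 call was lost without control 2, 3 or 4 or furan 41 at 18 h, and without control 2 or 6 or furan 42 or 43 at 3 weeks, with differences of 0.50 to 0.62 and adjusted p-values of 0.0572 to 0.0813. That of Psmb4 was lost without control 4 at 18 h, where the difference was -0.50 (adjusted p = 0.0542), and with Agilent's log ratios (-0.40, adjusted p = 0.209). With no filter on dim probes the calls of Psmb4 and Psmd14 were both lost (adjusted p = 0.0652 and 0.0793). Psmb5 and Psmb6 had effects that differed by -0.0045 and -0.070 between the times on their brightest probes (SE 0.13 and 0.13), and on the less bright probe of Psmb5 by 0.38 ± 0.20 (adjusted p = 0.212). Of the 7 calls, 0 passed on slide 1 alone and 0 on slide 2 alone, where each group held 2 arrays.

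The times in formalin were compared within controls and within furan livers. In controls 20 of 34 members were lower at 3 weeks than at 18 h and 6 were higher, beside 28.5% and 31.8% of all genes. In furan livers 18 were lower and 7 higher, beside 30.2% and 38.6%. The count in controls includes Psmd14, whose probe was well above background on 0 arrays at 3 weeks. In the core the median difference was -0.73 in controls and -0.87 in furan livers, and in the cap -0.28 and 0.023, beside 0.061 and 0.089 for all genes. With median centring, 5 members were higher and 25 lower in furan livers, beside 15.8% and 46.5% of all genes.

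Psmb1 fell most in controls, where it went from 0.84, 0.79, 0.76 and 0.63 to -1.18, -1.39 and -0.93, a fall of 1.92 (SE 0.12, adjusted p = 1.52e-09). No 3-week control came near an 18 h control. Among the ATPases Psmc5 fell by 1.39 and Psmc4 by 1.43 in controls, while Psmc1 rose by 1.27 and Psmc2 by 1.01. The catalytic subunits differed among themselves, since Psmb5 rose by 0.83 and Psmb6 by 0.75 while Psmb7 fell by 0.73. Psmd4 rose by 0.92 and Psma3 by 0.44, the latter a call that was lost with median centring (0.048) and a direction that reversed with it in furan livers (-0.17). All of these differences passed the test with loess (adjusted p under 0.05). Here too probes disagreed: Psmc3 fell by 0.76 on its brightest probe and rose by 0.62 on the other, Psmd12 fell by 0.64 and rose by 0.72, and Psmc1 had -0.16 on its dimmer probe. Psmd11 had 0.029 in controls, or -0.55 with median centring, and rose by 1.02 in furan livers, a call lost with median centring (0.30, adjusted p = 0.0658). Psmd14 is given no fold between the times.

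**Figure D5:**
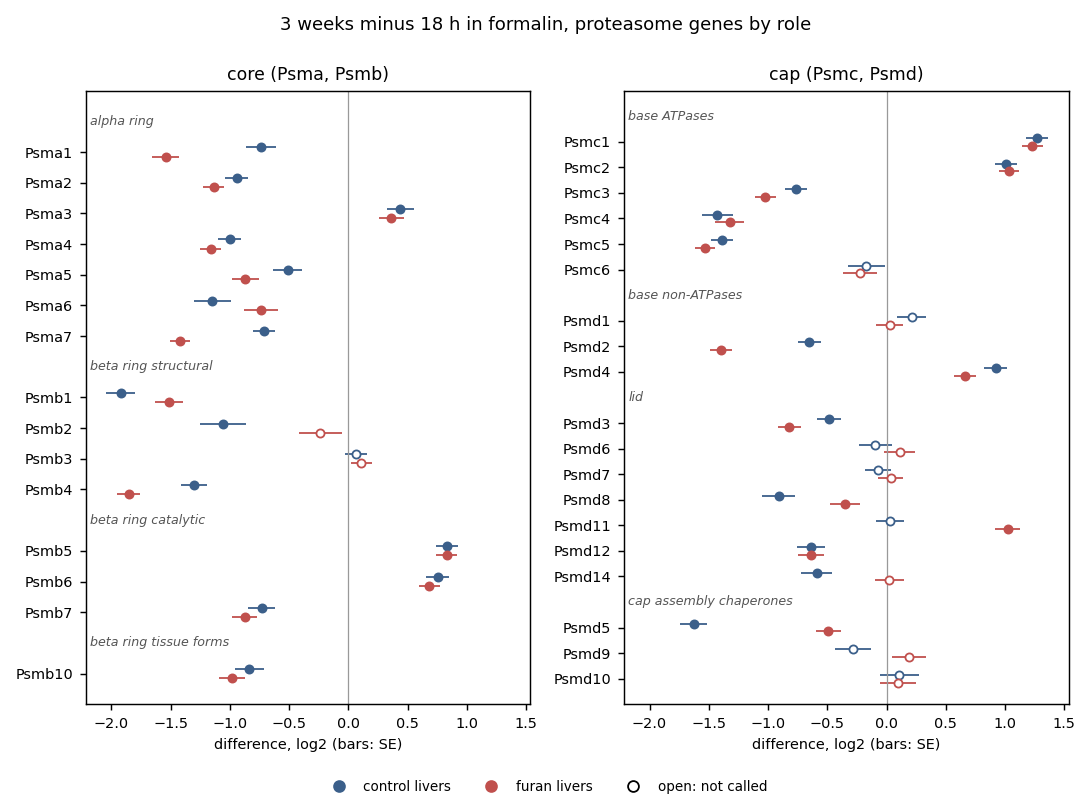
Difference between 3 weeks and 18 h in formalin in control and furan livers for the 34 tested members, by role, in log2 units with standard errors. Most members lie to the left of 0, and Psma3, Psmb5, Psmb6, Psmc1, Psmc2 and Psmd4 were called higher in both.

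The genes that assemble, activate or serve the proteasome moved as follows at 18 h, on lists that are not members. These lists were also chosen with earlier results of these data known. Beside each count stand the shares of all genes, of which 21.7% rose and 26.6% fell. Of 5 factors that assemble the core 4 rose (Psmg1 to Psmg4), with Psmg4 at 0.48 (adjusted p = 0.0039) and Psmg3 at 0.31 (adjusted p = 0.0124), and Pomp had 0.012. Of 9 partners of the cap 7 rose and 1 fell, the ubiquitin receptor Adrm1 by 0.64 (adjusted p = 3.68e-04) and the deubiquitinase Uchl5, which binds Adrm1, by 0.49 (adjusted p = 0.00131), whereas Ecpas fell by 0.41. Among 5 activators and inhibitors 1 rose and 2 fell: the nuclear activator Psme4 fell by 0.58 and the inhibitor Psmf1 by 0.59. Among 8 genes of substrate delivery 3 rose and 1 fell, among them Vcp, the segregase that extracts substrates, by 0.72 (adjusted p = 6.16e-05) and the protease Ddi2, which activates Nfe2l1, fell by 0.84 (adjusted p = 4.75e-05). Of 5 ubiquitin and activating enzyme genes 2 rose, Ubb by 0.62 and Uba1 by 0.43. Of 5 transcription factor genes for the proteasome, 1 rose, Nfe2l2 by 0.67 (adjusted p = 0.00164), and 3 fell, Nfe2l1 by 0.35 (adjusted p = 0.00462), Nfya by 0.25 and Nfyb by 0.46. At 3 weeks 0 genes of these lists passed, beside 0.104% of all genes higher and 0.0318% lower.

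Of the genes not tested, Psma8 (an alpha subunit of testis), Psmb11 (a beta subunit of thymus) and the lid subunit Psmd13 were well above background on 0 arrays in every group. Psmc3ip, the gene outside the proteasome, had -0.23, -0.29, 0.16 and -0.16 in 18 h controls and -0.39, -0.13, -0.069 and 0.087 in furan samples, which overlap (adjusted p = 1.00). It was well above background on 2 and 3 arrays of these groups.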

How the data were processed

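RNA of furan and control livers was hybridised to Agilent mouse arrays of the SurePrint G3 type. Per the file headers, the authors read the arrays with Agilent Feature Extraction 11.0.1.1, and the deposited files give spot and background signals as intensity and Agilent's log ratio in log10 units, with the liver in Cy5 per the labels. The deposited value table holds log2 ratios after a normalization by the authors that is not given in the sources used here. Its scale and direction were read from the scanner values, its column medians lay between -0.00919 and 0.0247, and it served as an alternative.

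Median signals were corrected by normexp with an offset of 50 and normalized by loess within each array, with flagged spots left out. Probes whose Cy5 signal was well above background on 3 or more arrays of any group were kept, which left 29690 of 55681 probes. Names came from RefSeq by accession. R 4.3.3 with limma 3.58.1 (lmFit, eBayes) fitted all kept probes with the slide as a term, and p-values were adjusted by Benjamini-Hochberg over all of them (threshold 0.05). Each furan comparison was fitted on its own time only, and the others on all 15 samples. The brightest kept probe stood for a gene. The 3-week control arrays 2.1 and 2.2 were averaged as 1 animal because they share a sample number; their correlation was 0.92. The deposited table's columns for these arrays correlated at 0.98 with the other array and 0.92 with their own, which does not affect the average. The fits were tested on simulated data, where 85% of 2-fold and 9% of 1.41-fold changes with furan were called at 18 h. At 3 weeks the shares were 74% and 0%, and for the difference of the furan effects 58% and 3%. The simulation changed only a small part of 29676 probes, while 14025 probes were called in the data at 18 h. With more calls the adjusted p is laxer, so the simulated shares do not carry over to the 18 h comparison. There, differences as small as 0.22 were called (Psma2 and Psma4). Figures used Python 3.11.15, numpy 2.4.6 and matplotlib 3.10.9.

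The members and lists were chosen with earlier results of these data known. Genes given with all values were Psmb5, Psmb6, Psmb7, Psmb10, Psmd14 and Psmc3ip, plus, in core and cap apart, up to 3 largest rises and falls at 18 h and the 3 smallest p at 3 weeks, and 2 genes of each pathway list by smallest p. Others are given by their difference. Psmb4 was added for its called difference.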

Additional observations from a re-analysis of the deposited data

Results flagged for a closer look

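In 7 members the furan effect differed between the times in formalin (limma, adjusted p under 0.05): the effect at 3 weeks minus that at 18 h was -0.81 for Psma1, -0.70 for Psma7, -0.55 for Psmb4, -0.74 for Psmd2, 1.14 for Psmd5, 0.99 for Psmd11 and 0.61 for Psmd14, whose probe was well above background on 0 arrays at 3 weeks, so that its value is poorly determined. Single samples stood apart from the other 3 of their group in 3 of 63 groups of 4 tested over 21 named genes, where chance alone marks about 1 in 20. Control 6 at 18 h was at 0.52 for Psma6, beside 0.83 to 0.89 in the other controls, and at -0.55 for Psmb5, beside -0.43 to -0.42. Furan 41 at 18 h was at -0.43 for Psmd14, beside 0.025 to 0.069 in the other furan samples.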

How the results depend on the processing

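At 18 h 25 members were called with furan, against 15 on slide 1 alone, 13 on slide 2 alone and 0 with the share of probes above background as a covariate. At 3 weeks 0 were called, against 9 with median centring and 1 with all 15 samples in 1 fit. The difference of the furan effects had 7 calls, against 11 with the authors' deposited values and 0 on either slide alone. Between the times 26 were called in controls and 25 in furan livers, against 17 and 12 with the covariate. Leaving out 1 sample gave 21 to 24 calls at 18 h, 0 at 3 weeks, 5 to 9 for the difference, 26 to 27 in controls and 24 to 26 in furan livers. With the sample number as a replicate block, 8, 26 and 25 members were called for the difference and the times. Same-numbered samples correlated at 0.019 to 0.18 over probes, and 5 of 7 samples at 3 weeks correlated best with their own number. Whether a number stands for the same mouse at both times was not settled. The main fits treated the samples as independent. Among named genes with a call before or after, signs reversed only with median centring. This held for Psmb7 with furan at 18 h (0.0047) and for Psmd11 between the times in controls (-0.55). It also held for Psma3 between the times in furan livers (-0.17). Psmd9, which is not a named gene, turned from -0.38 to 0.12 with furan at 18 h under the covariate. Of 43 results of named genes that were not called, 22 turned sign under 1 or more alternatives without being called. The other alternatives kept the counts within 1.5 times. The number of arrays and the dim spots at 3 weeks limit the precision.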
